A study of Mus musculus with 6 samples.

Results

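The guanylate-binding protein (Gbp) family was described gene by gene in left ventricles collected at 4 days post injury (dpi) from 3 Cre positive mice and 3 Cre negative siblings. Members were the genes named *Gbp2b*, *Gbp2*, *Gbp3*, *Gbp4*, *Gbp5*, *Gbp6*, *Gbp7*, *Gbp8*, *Gbp9* and *Gbp11*, read by gene symbol. Of these 10 members, 9 had a row among the 17556 genes of the deposited table and all 9 were among the 13817 genes that passed the filter on low counts, *Gbp2b* through its Cre positive values alone. No row was found for *Gbp11* by symbol, older symbol or gene number, so it was not analysed here. The family was chosen by the counts of *Gbp2b*, which was present in the Cre positive ventricles and near absent in the others. Its values are therefore a description with no test, and the other members were taken by family name.

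Mice of both groups, aged between 6 and 10 weeks, carried floxed *Yap* on both alleles and floxed *Wwtr1* on 1 allele, underwent permanent ligation of the left anterior descending artery, and ate tamoxifen citrate chow from surgery on. Cre positive mice also had 1 copy of MerCreMer, a tamoxifen inducible Cre, under the endogenous Periostin promoter, which is active in myofibroblasts. Cre negative mice had wildtype Periostin. RNA came from the left ventricle and not from sorted myofibroblasts, so fewer cells that express a gene and less of its RNA per cell cannot be told apart. No group carried the Cre without the floxed alleles, so the Cre allele with its linked chromosome and the intended loss of *Yap* and *Wwtr1* cannot be told apart either.

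Guanylate-binding proteins are large GTPases that interferon, above all interferon gamma, switches on in most cell types. They assemble on the membranes of vacuoles and bacteria inside cells and take part in inflammasome responses. In the mouse their genes lie in a cluster on chromosome 3 and another on chromosome 5. Signalling runs from the interferon receptors through Jak kinases to transcription factors, which bind gamma-activated sequences (GAS) and interferon-stimulated response elements (ISRE) near target genes.

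The estimated counts summed to between 13177888 and 14827579 per ventricle. A library with no count of a gene could have held up to 3 counts of it, or between 0.194 and 0.247 counts per 1000000 TMM-scaled counts (CPM), and such limits cover counting error only. Cre negative replicate 1 stood apart from the rest, with a chi-square per gene of 36.99 to 56.9 in its 5 pairs against 6.997 to 14.5 in the 10 other pairs. Results were therefore also taken without it. edgeR's quasi-likelihood test with Benjamini-Hochberg adjustment called 1 of 13817 genes between genotypes, or 0.00724%, and that gene was *Gbp2b*. Since its values chose the family, nothing is read from that call. Without Cre negative replicate 1 it called 2 genes.

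*Gbp2b* (gene number 14468), also known as Gbp1, had 0, 3 and 1 counts in Cre negative replicates 1, 2 and 3, and 174, 158 and 136 counts in Cre positive replicates 1, 2 and 3. Every Cre positive ventricle held many more counts than any Cre negative ventricle, and the groups did not overlap. On the TMM-scaled CPM scale, used below for values of single genes, these were 0, 0.206 and 0.0681 without Cre and 12.1, 10.2 and 9.31 with it. The exact Poisson 95% intervals reached at most 0.603 CPM in a Cre negative ventricle and went no lower than 7.81 CPM in a Cre positive one. Summed over libraries, 468 counts stood against 4, a ratio of 109 after scaling for depth, with an exact binomial 95% interval of 42.3 to 402 that covers counting error only. The lowest count, in Cre negative replicate 1, came from the library that stood apart, and the fitted log2 fold change of 6.65 was 6.18 without it and 7.85 without Cre negative replicate 2, which held 3 of the 4 counts. Per length, *Gbp2b* reached 8.05, 7.31 and 6.47 TPM (transcripts scaled to gene length and library size) in the Cre positive ventricles.

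Genes with at most 3 counts in every ventricle of one group and at least 10 in every ventricle of the other were listed, by limits chosen after the *Gbp2b* values were seen, so that the count supports nothing about *Gbp2b*. Of 17556 genes, 2 were found in Cre positive ventricles alone and 0 in Cre negative ventricles alone. The other gene was *Zfp965*, a zinc finger gene on chromosome 2 with 0 counts in each Cre negative ventricle and 16.6, 13.7 and 18.4 estimated counts in the Cre positive ones. Since these are not whole numbers, its reads were divided between genes or transcripts and its values are uncertain.

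Paralogs share sequence, so reads of one could be credited to another. *Gbp2b* and *Gbp2*, the closest pair on chromosome 3 by coding identity, were identical at 82.4% of their aligned coding bases, with a longest shared stretch of 98 bases. *Gbp3* and *Gbp7* had a longer shared stretch, of 123 bases. Of all 50-base windows of the *Gbp2b* transcript, 1.83% occurred in the transcript of another gene, which was *Gbp2*. Every estimated count of *Gbp2b* and of *Gbp2* was a whole number, to within 0.005, whereas 11.5% of all values in the table were not whole. *Gbp2b* counts thus came out undivided between genes in each of the 6 ventricles. The family member most exposed to shared reads was *Gbp6*, with 88% of its windows found in other transcripts and 98.4% coding identity to *Gbp10*, and its estimated counts were not whole in any of the 6 ventricles. *Gbp6* values are uncertain for that reason. *Gbp10*, which is not a member, had 6.04 to 26.6 estimated counts and likewise none that was whole.

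*Gbp2b* lies on the plus strand of chromosome 3 (GRCm38.p6) at chr3:142594816-142619179, between *Gbp3* at chr3:142560016-142573213 and *Gbp2* at chr3:142620663-142638008. The start of *Gbp2* is 1484 bases past the end of *Gbp2b*. *Gbp5* at chr3:142496934-142522344 and *Gbp7* at chr3:142530336-142550151 complete the cluster of 5 members, which spans 141075 bases. Of the 10 members, these 5 had a promoter window in the RefSeq table of GRCm38.p6, reaching from 250 bases before the start to 50 after it. The 250 bases before the start are shown for *Gbp2b* and for *Gbp2*, its neighbour with a similar coding sequence but no such difference between genotypes, and for *Gbp5*, whose window also held GAS cores. Capitals mark matches on either strand to the ISRE core GAAANNGAAA and the GAS core TTCNNNGAA.
Gbp2b: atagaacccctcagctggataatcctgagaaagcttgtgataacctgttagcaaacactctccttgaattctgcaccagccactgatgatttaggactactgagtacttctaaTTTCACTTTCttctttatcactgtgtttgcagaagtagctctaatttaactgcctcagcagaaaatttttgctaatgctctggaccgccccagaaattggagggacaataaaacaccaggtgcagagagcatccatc
Gbp2: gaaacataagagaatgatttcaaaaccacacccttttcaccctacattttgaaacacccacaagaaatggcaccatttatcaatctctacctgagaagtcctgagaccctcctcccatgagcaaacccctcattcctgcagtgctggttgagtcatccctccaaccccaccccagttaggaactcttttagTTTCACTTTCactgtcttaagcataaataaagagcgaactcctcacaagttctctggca
Gbp5: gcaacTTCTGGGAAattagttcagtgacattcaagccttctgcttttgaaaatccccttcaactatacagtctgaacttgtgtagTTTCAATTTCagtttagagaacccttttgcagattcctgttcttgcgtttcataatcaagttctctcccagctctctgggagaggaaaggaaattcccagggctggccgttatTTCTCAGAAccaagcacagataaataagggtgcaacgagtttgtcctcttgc

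The windows of *Gbp2b* (chr3:142594597-142594846), *Gbp2* (chr3:142620413-142620662) and *Gbp5* (chr3:142496684-142496933) each held 1 ISRE core before the start, on the minus strand. *Gbp2b* and *Gbp2* carried the same 10 bases, TTTCACTTTC, whose first base lay 137 bases before the start site of *Gbp2b* and 59 before that of *Gbp2*. Start sites are those of the promoter table, and that of *Gbp2b*, at 142594847, lies 31 bases past the first base of the gene as given above. *Gbp5* had TTTCAATTTC at 165 bases, and GAS cores at 245 and 52 bases before its start. *Gbp7* had 1 ISRE core at 53 bases with GAS cores at 106 and 87 bases. *Gbp3* had 2 overlapping ISRE cores, at 45 and 39 bases, in the window of one of its start sites and none in that of the other. All 5 members thus held an ISRE core in a window, against 3.44% of the 32851 windows in the table, and 2 of the 5 held a GAS core, against 8.3% of windows. A match describes letters in the window and was not tested as a binding site.

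**Figure D1:**
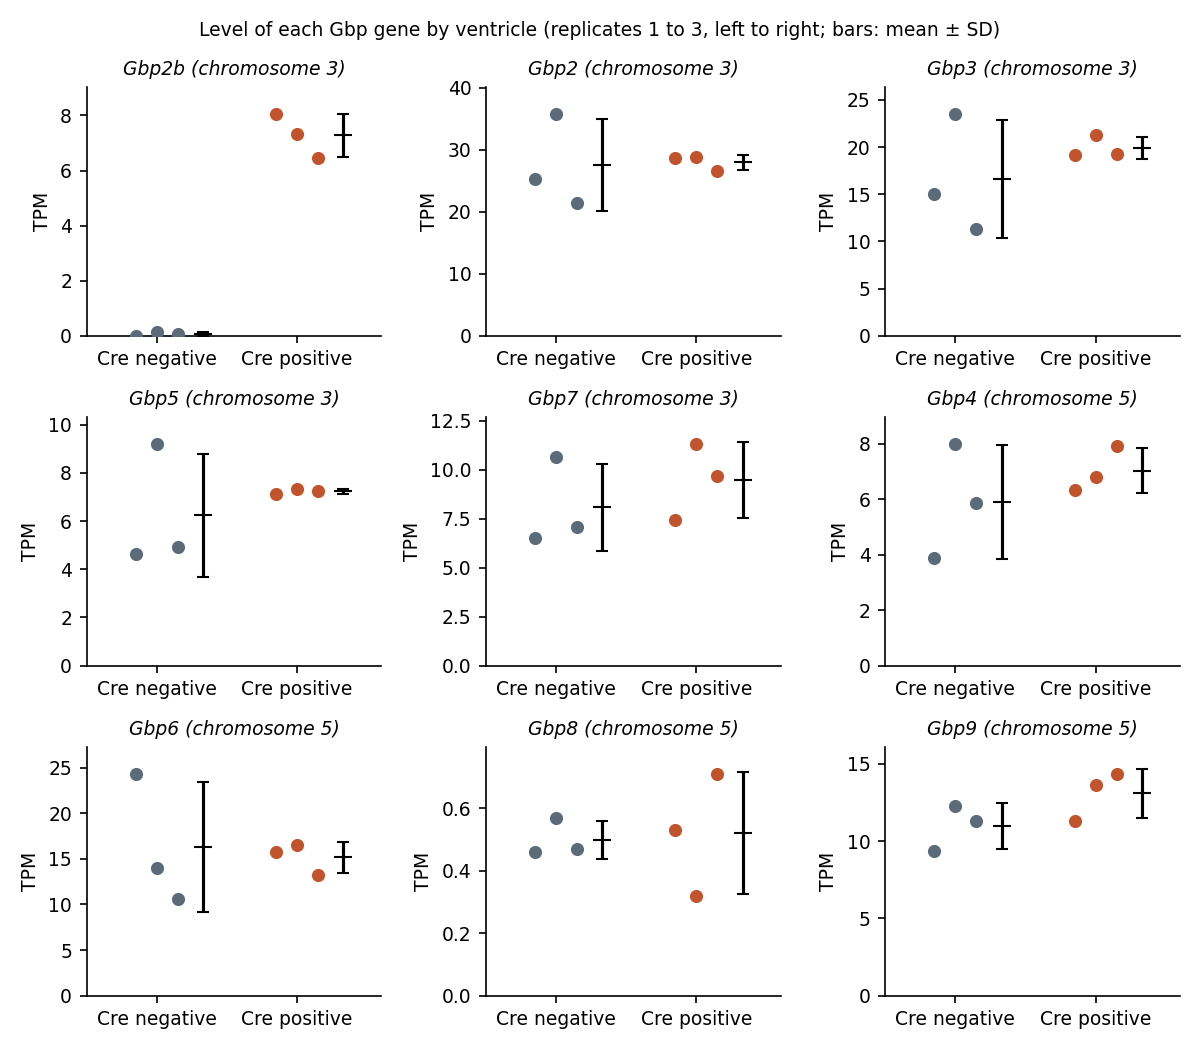
Deposited TPM of the 9 listed members by ventricle, with Cre negative ventricles in grey, Cre positive ventricles in orange, and the mean ± SD of each group beside its points. *Gbp2b* reached 6.47 to 8.05 TPM in Cre positive ventricles against at most 0.14 in the others, and for the other 8 members the groups overlap.

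None of the 8 other members passed the edgeR test, and the same count of 0 came from DESeq2 and from limma on log2(TPM + 1). At an unadjusted p under 0.05, edgeR gave 0 of the 8, beside 5.83% of all tested genes. Without Cre negative replicate 2, where several members were highest, it gave 2 of the 8, beside 6.46% of all genes tested then. With any other ventricle left out it gave 0 of the 8. No member of the 8 had all 3 Cre positive values above, or all below, the 3 Cre negative values, where 7.55% of all tested genes lay entirely above and 6.85% entirely below. Their fitted log2 fold changes lay between −0.25 and 0.15, with a median of 0.11 beside 0.01 over all tested genes.

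On chromosome 3, *Gbp2* (gene number 14469), a GTPase recruited to pathogen vacuoles, had 37.0, 47.0 and 28.1 CPM in Cre negative replicates 1 to 3 and 37.4, 34.9 and 33.1 in the Cre positive ones. The Cre positive values lay inside the range of the Cre negative values, of which replicate 2 was the highest and replicate 3 the lowest of all 6. Its log2 fold change was −0.09 (standard error 0.18, 95% interval −0.50 to 0.32, adjusted p = 0.889, edgeR). The interval leaves room for a 1.25-fold higher or a 0.708-fold level with Cre, far from what was measured for *Gbp2b*.

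*Gbp3* (gene number 55932) had 23.9, 33.6 and 15.9 CPM without Cre and 26.9, 27.9 and 25.9 with it. *Gbp5* (gene number 229898), a member linked to inflammasome assembly, had 8.41, 14.99 and 7.97 without Cre and 11.5, 11 and 11.2 with it. *Gbp7* (gene number 229900) had 22.3, 32.6 and 21.7 without Cre and 22.7, 32.0 and 28.1 with it. In each of these genes, by CPM, Cre negative replicate 2 was the highest ventricle and Cre negative replicate 3 the lowest. The 3 Cre positive values of *Gbp3* and of *Gbp5* lay close together between those extremes. Log2 fold changes from the same edgeR fit were 0.14 for *Gbp3* (95% interval −0.42 to 0.69), 0.10 for *Gbp5* (95% interval −0.47 to 0.67) and 0.11 for *Gbp7* (95% interval −0.34 to 0.56). None exceeded the SD of log2 CPM among Cre negative mice (0.54, 0.50 and 0.33), while those of *Gbp3* and *Gbp5* exceeded the SD among Cre positive mice (0.05 and 0.03).

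On chromosome 5, *Gbp4* (gene number 17472) had 10.6, 19.5 and 13.7 CPM without Cre and 14.2, 15.3 and 18.3 with it. *Gbp9* (gene number 236573) had 29.9, 35.8 and 33.2 without Cre and 33.4, 36.7 and 39.6 with it. *Gbp9* had the narrowest interval of the 8 members. Its log2 fold change of 0.15 (95% interval −0.10 to 0.40, adjusted p = 0.722 from edgeR's test) kept its direction without any one ventricle, between 0.08 and 0.21. Even so its groups overlapped, since Cre negative replicate 2 lay above Cre positive replicate 1.

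*Gbp6* (gene number 100702), whose reads are shared as described, had 63.6, 32.9 and 24.7 CPM without Cre and 36.8, 35.8 and 29.4 with it. Its highest value was in Cre negative replicate 1, the library that stood apart, and no other member peaked there. Its log2 fold change was −0.25 (standard error 0.32) with that library and 0.23 without it, on either side of 0. *Gbp8* (gene number 76074) was scarce, with 11, 12 and 9 counts without Cre and 10, 6 and 16 with it. At that depth its 95% interval ran from −1.19 to 0.99 on the log2 scale, from a 0.439-fold to a 1.98-fold level. Without Cre negative replicate 1 the log2 fold changes were −0.10 for *Gbp2*, 0.12 for *Gbp3*, −0.03 for *Gbp5*, 0.02 for *Gbp7*, −0.06 for *Gbp4*, 0.01 for *Gbp8* and 0.08 for *Gbp9*, and none of the 8 was called.

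**Figure D2:**
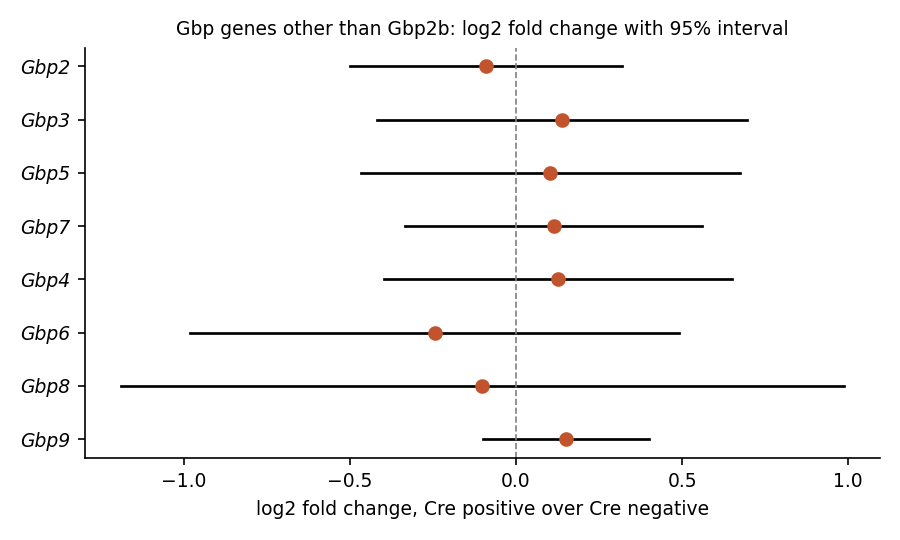
Log2 fold change of Cre positive over Cre negative ventricles for the 8 listed members other than *Gbp2b* (points), with 95% intervals from the edgeR fit (lines). Every interval crosses 0, the narrowest is that of *Gbp9* (−0.10 to 0.40) and the widest that of *Gbp8* (−1.19 to 0.99).

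Compared per length, the level of *Gbp2b* in Cre positive ventricles was ordinary for the family. Mean TPM with Cre was 28 ± 1.24 for *Gbp2*, 19.9 ± 1.16 for *Gbp3*, 15.2 ± 1.72 for *Gbp6*, 13.1 ± 1.599 for *Gbp9*, 9.48 ± 1.93 for *Gbp7*, 7.28 ± 0.791 for *Gbp2b*, 7.23 ± 0.112 for *Gbp5*, 7.03 ± 0.807 for *Gbp4* and 0.52 ± 0.195 for *Gbp8* (SD, n = 3 each). *Gbp2b* was thus the sixth of the 9 by its mean, and its range overlapped those of *Gbp7*, *Gbp5* and *Gbp4*, so that its place was 5, 7 and 8 in replicates 1, 2 and 3. In the Cre positive group *Gbp2* lay above *Gbp3*, and *Gbp3* above *Gbp6*, with no overlap, while *Gbp6* and *Gbp9* overlapped. In Cre negative ventricles, and over all 6, every neighbouring pair from *Gbp2* down to *Gbp4* overlapped, and *Gbp8* lay below them all at 0.32 to 0.71 TPM. In Cre negative ventricles *Gbp2b* came last of the 9, at 0, 0.14 and 0.07 TPM.

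The summed level of the 9 listed members was 89.5, 114 and 73.1 TPM in Cre negative replicates 1 to 3 and 104, 113 and 105 TPM in the Cre positive ones. *Gbp2b* made up 7.72%, 6.45% and 6.14% of that sum with Cre and at most 0.123% without it. Its TPM was 28.1%, 25.4% and 24.4% of that of *Gbp2* in the 3 Cre positive ventricles. Without *Gbp2b* the sum was 100.4 ± 5.002 TPM with Cre and 92.1 ± 20.6 TPM without it (SD, n = 3 each). The members of chromosome 5 summed to 35.8 ± 1.71 and 33.7 ± 5.001 TPM, and those of chromosome 3 without *Gbp2b* to 64.6 ± 3.54 and 58.5 ± 18.2 TPM.

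Levels of the other members varied more among Cre negative siblings than among Cre positive mice. The SD of log2 CPM was larger without Cre in 7 of the 8, *Gbp8* being the exception, with a median of 0.41 against 0.15. The same was true of 66.3% of all tested genes, with a median of 0.19 against 0.13. The SD of *Gbp5* was 0.50 among Cre negative and 0.03 among Cre positive ventricles, and that of *Gbp6* was 0.70 and 0.18. Without Cre negative replicate 1, which held the high value of *Gbp6*, the Cre negative SD of *Gbp6* was 0.29. The SD was then larger without Cre in 6 of the 8 members, with a median of 0.39. This was so for 36.2% of all tested genes, with a median of 0.09. These Cre negative SDs rest on replicates 2 and 3 alone and the Cre positive SDs on all 3 ventricles. The shares are thus not like for like with those from all ventricles. By CPM, 5 of the 8 members were highest in Cre negative replicate 2, where 12.2% of all tested genes were highest, and 5 were lowest in Cre negative replicate 3, where 12.4% of all genes were lowest. These genes were *Gbp2*, *Gbp3*, *Gbp5* and *Gbp7* in both counts, with *Gbp4* in the first and *Gbp6* in the second. By TPM the counts were 4 and 3, as *Gbp7* was highest in Cre positive replicate 2, and *Gbp5* and *Gbp7* were lowest in Cre negative replicate 1. Members of a family with shared regulators are not independent replicates of a ventricle, and no test was made of these counts. Some interferon pathway genes outside the family, *Irf7* and *Isg15* among them, had the same highest and lowest ventricle by CPM. *Irf7* had 74.6, 150.6 and 52.6 without Cre and 94.7 to 107 with it, whereas *Irf1* was highest in Cre positive replicate 3.

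**Figure D3:**
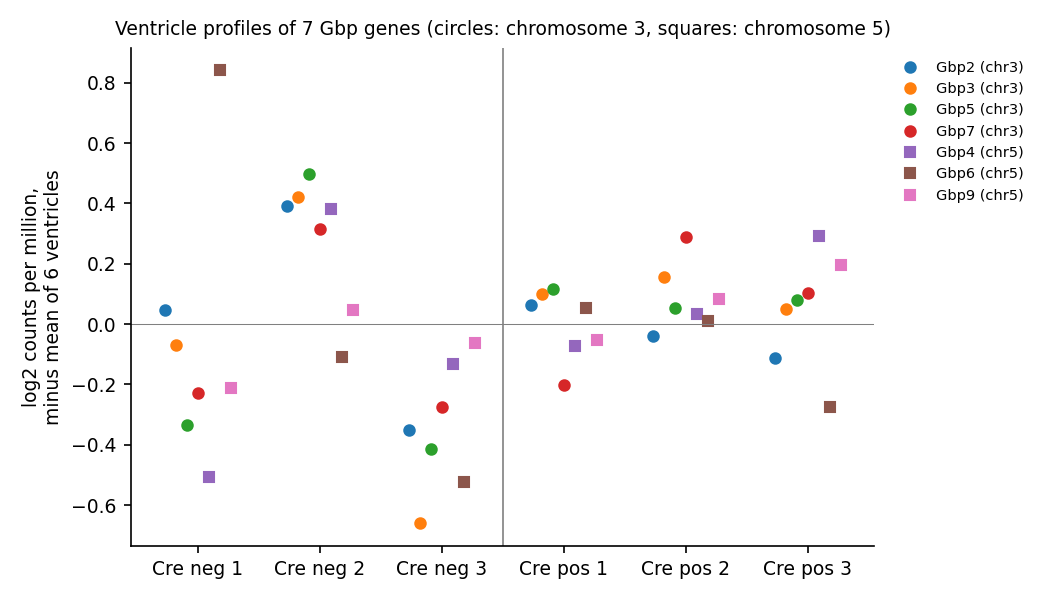
Log2 CPM of 7 members in each ventricle, minus the gene's mean over the 6 ventricles, with chromosome 3 members as circles and chromosome 5 members as squares; *Gbp2b* and the scarce *Gbp8* are left out. In Cre negative replicate 2 the members other than *Gbp6* and *Gbp9* lie well above 0, in Cre negative replicate 3 all 7 lie below it, and *Gbp6* peaks in Cre negative replicate 1.

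The interferon pathway around the family was described from a list of 58 genes, of which 55 had a row and 52 were tested. None passed the edgeR test in either direction, with 0 at an unadjusted p under 0.05, where 5.83% of all tested genes fell, and a smallest adjusted p of 0.714. DESeq2 and limma called 0 as well. Without Cre negative replicate 2, the ventricle in which several Gbp genes were highest, 15 genes of the list had an unadjusted p under 0.05 from edgeR. Of all genes tested then, 6.46% did, and 0 of the list passed the adjusted threshold. Leaving out a control with high values raises fitted differences, and with any other ventricle left out the number was 0 to 2. Fitted values were above 0 for 41 of the 52, where 51.2% of all tested genes were above 0, and their median log2 fold change was 0.11 beside 0.01 over all genes. No gene of the list had all Cre positive values below, and 2 of the 52 had all above, the Cre negative values, beside 6.85% and 7.55% of all tested genes.

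Among ligands, *Ifng*, which encodes interferon gamma, had 1 count in Cre positive replicate 1 and 0 in the other 5 ventricles, all under the floor of 3 counts taken above. *Il15*, a cytokine that sustains NK and memory T cells, had 11.3, 18.3 and 13.6 CPM without Cre and 8.02, 14.0 and 12.7 with it, a log2 fold change of −0.32 (95% interval −0.90 to 0.27). The 4 receptor genes had fitted values between −0.05 and 0.21. Among kinases and transcription factors, 9 of 10 were above 0 and none was called. *Irf1*, an interferon-induced transcription factor, lay at 28.8 to 34.5 CPM without Cre and 32.3 to 34.9 with it.

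Of the 4 brakes on the pathway, such as *Socs1* and *Usp18*, none was called, and their log2 fold changes ran from −0.24 to 0.21. The 9 tested interferon-inducible GTPases outside the family, among them *Irgm1* and *Igtp*, ran from −0.15 to 0.14. Among the 16 other tested targets the largest fitted difference was that of *Cxcl9*, a chemokine for activated T cells, with 3.79, 7.43 and 5.72 CPM without Cre and 8.86, 7.51 and 5.61 with it. Its log2 fold change was 0.37 (95% interval −0.28 to 1.02), and its groups overlapped. *Nos2*, the inducible nitric oxide synthase, had 12.5 to 22.8 without Cre and 18.2 to 24.98 with it, a log2 fold change of 0.28 (95% interval −0.24 to 0.79). The 7 partners of the family in inflammasome responses, such as *Casp4* and *Gsdmd*, ran from −0.13 to 0.25. *Ifng*, *Il12b* and *Ido1* were too scarce to be tested.

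The genes around the chromosome 3 cluster were read in the same fit. On the near side the closest tested genes were *Pdlim5*, *Bmpr1b* and *Unc5c*, and on the far side *Kyat3*, *Gtf2b* and *Pkn2*. None was called. *Unc5c*, a netrin receptor gene 662010 bases before the cluster, had 0.742, 1.58 and 1.02 CPM without Cre and 2.79, 2.46 and 2.67 with it, a log2 fold change of 1.23 (95% interval 0.45 to 1.995, adjusted p = 0.714 from edgeR's test over all genes). Its groups did not overlap, as was the case for *Pkn2*, at 45.8 to 48.8 without Cre and 50.2 to 50.9 with it. The other 4 neighbours overlapped between groups. Of the 6 neighbours of the chromosome 5 cluster, *Zfp33b* and *Lrrc8c* had all Cre positive values above the others, at log2 fold changes of 0.46 and 0.16, and none was called. Over all tested genes, 7.55% lay entirely above in this way.

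**Figure D4:**
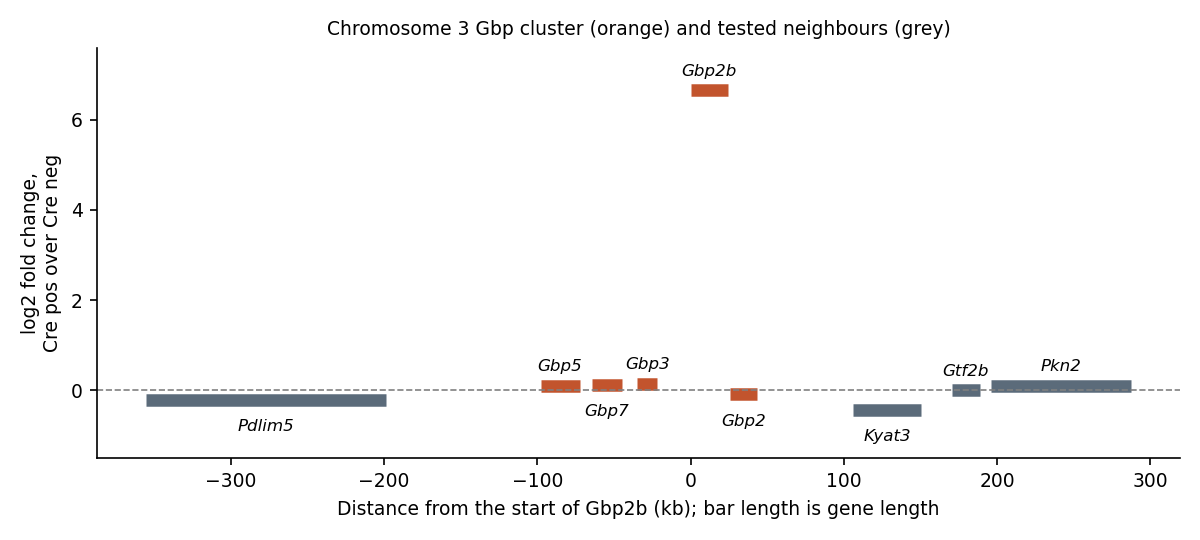
Map of the chromosome 3 cluster, with distance from the start of *Gbp2b* on the horizontal axis, in kilobases, and the fitted log2 fold change of Cre positive over Cre negative ventricles on the vertical axis; each bar spans a gene, in orange for members and in grey for the 4 tested neighbours nearest to it. *Gbp2b* stands at 6.65, a fitted value that depends on how counts near 0 are handled, while *Gbp2* and *Gbp3* on either side of it stand at −0.09 and 0.14.

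The targeted and driver genes gave the context of these values. *Yap1* had 108, 103 and 99.5 CPM without Cre and 113, 101 and 103 with it, and *Wwtr1* had 113, 103 and 113 without Cre and 113, 109 and 116 with it. Their log2 fold changes were 0.03 (95% interval −0.17 to 0.23) and 0.05 (95% interval −0.15 to 0.24). *Postn*, the locus of the Cre driver, had 852, 1727 and 1883 CPM without Cre and 889, 998 and 946 with it, a log2 fold change of −0.66 (95% interval −1.29 to −0.02, adjusted p = 0.714, edgeR). Without Cre negative replicate 1 it was −0.94 with an adjusted p of 0.0182 from edgeR, the other gene called in that fit, and over all alternatives run the adjusted p ranged from 0.0182 to 0.97. *Postn* lies on chromosome 3 as *Wwtr1* and *Gbp2b* do, and ends 88.2 Mb before *Gbp2b*.

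Markers of the cells in the samples were read beside the family. Ventricular cardiomyocyte markers were abundant, at 24810 to 34780 summed CPM without Cre and 20940 to 23790 with it. Of the 5, *Myl2*, *Myl3*, *Tnnt2* and *Tnni3* had every Cre positive CPM below every Cre negative CPM, beside 6.85% of all tested genes, and by TPM this was so for 2 of the 5, *Myl3* and *Tnnt2*. Atrial markers, which a ventricle should largely lack, ranged from 60.1 to 521 without Cre and from 19.2 to 814 with it. Macrophage and monocyte markers summed to 426, 740 and 757 without Cre, lowest in the library that stood apart, and to 620, 689 and 670 with it. Summed ranges also overlapped for endothelial markers (785 to 900 and 858 to 948), fibroblast markers (9222 to 13820 and 13050 to 16490), myofibroblast markers (1320 to 2768 and 1753 to 1932, most of it *Postn*, with *Acta2* and *Cthrc1* at log2 fold changes of 0.33 and 0.35), neutrophil markers (34.9 to 105 and 34.3 to 54.2) and B cell markers (5.38 to 23.7 and 2.59 to 32.5). T and NK markers summed to 2.80 to 7.63 without Cre and 3.82 to 11.1 with it. Of the 3 tested genes of that list 0 lay entirely above with Cre, beside 7.55% of all tested genes. The NK receptor gene *Ncr1*, too scarce to pass the filter, did so, with 0, 1 and 1 counts without Cre and 7, 8 and 11 with it. That share does not apply to genes outside the filter. The other 5 of the 6 genes of the list, which include the NK gene *Klrb1c* (0 to 4 counts without Cre and 3 to 7 with it), overlapped. Fitted log2 fold changes of the 3 tested were 1.28 for *Cd3e*, 0.61 for *Cd8a* and −0.07 for *Cd4*. The neutrophil gene *Ly6g* was at 0 in 4 of the 6 ventricles. None of the 34 tested marker genes was called by edgeR's test, and the part of cell composition in the *Gbp2b* values was not tested.

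Genes were ranked by how closely their log2 values followed those of *Gbp2b* over the 6 ventricles. The closest outside the family were *Armc9* (Pearson r = 0.999), *Mlec* (0.99), *Nmt2* (0.99), *Plod2* (0.99) and *Zfp965* (0.99), and 156 of 13807 genes exceeded 0.9. With 3 low and 3 high ventricles, the split between groups fixes most of such a value. *Armc9* lay at 4.45 to 4.75 CPM without Cre and 5.89 to 6.07 with it. *Mlec* lay at 224 to 234 without Cre and 256 to 262 with it, and *Nmt2* at 23.2 to 25.8 and 32.0 to 34.1. *Plod2*, an enzyme that modifies collagen, lay at 61.0 to 67.4 without Cre and 84.8 to 92.2 with it. Ranking by *Gbp2b* picks genes whose groups lie apart, and 7.55% of all tested genes lay entirely above with Cre. None of the 5 was called in the main edgeR fit. Of the 5, *Zfp965*, with its uncertain counts, alone had 0 counts without Cre.

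The mean profile of the other Gbp genes had different company. It was taken over the 8 other members and *Gbp10*, which is not a member, on the log2 scale. Each gene had equal weight, also the scarce *Gbp8* and *Gbp10*, which were both highest in Cre positive replicate 3. Its closest gene was *Gm4951* (Pearson r = 0.99 over the 6 ventricles), an interferon-inducible GTPase gene, with 3.46, 5.30 and 2.38 CPM without Cre and 3.42, 3.75 and 4.45 with it. It was followed by *H2-T24* (0.98), a class I histocompatibility gene, *Tmem267* (0.97), *Slc51a* (0.97) and *Mcu* (0.96), the mitochondrial calcium uniporter. In total 46 genes exceeded 0.9. The leading 3 were highest in Cre negative replicate 2 and lowest in Cre negative replicate 3, and *Slc51a* and *Mcu* were highest in Cre positive replicate 3 and lowest in Cre negative replicate 3.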

How the data were processed

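RNA of 6 left ventricles was extracted with TRIzol, and libraries were prepared by BGI Americas. The submitters' processing notes name Bowtie2 2.2.5, RSEM 1.2.12 and the build GRCm38.p6. The authors deposited estimated counts per gene, which are not normalized, with TPM and FPKM values that the authors had corrected for gene length and depth. A deposited comparison by the authors (DESeq2 fold changes, p-values and q-values) was not used.

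Estimated counts were rounded, filtered with filterByExpr (minimum count 10, minimum total 15), scaled by TMM and compared with edgeR 4.0.16 (quasi-likelihood, Benjamini-Hochberg, threshold 0.05) in R 4.3.3, all 6 ventricles in 1 fit without covariates. The test was checked on simulated data. Alternatives used RLE scaling, no filter, unrounded counts, a replicate block, DESeq2 1.42.0, limma 3.58.1 on log2(TPM + 1), means of log2(TPM + 0.1) and each ventricle left out. Exact intervals came from scipy 1.17.1, alignments from Biopython 1.88 and figures from matplotlib 3.10.9. Log2 profiles used a prior count of 2.

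Positions and promoters are from RefSeq on GRCm38.p6, in which 17443 gene numbers matched. Shared 50-base windows were counted against 78289 canonical transcripts of GENCODE M39, with no coordinates taken from it. Named genes were the members, *Gbp10*, the 5 genes most like each profile, 3 tested neighbours on each side of a cluster, the targeted genes, *Ifng*, *Irf1* and the 3 list genes with the largest fold change. A further item of the rule is not reported here. Genes named outside this rule, such as the markers, were chosen after their values were seen. Members and lists were chosen with earlier results of these data known. The labels do not tie replicate numbers to litters, and p-values weigh the difference between groups against the spread between these ventricles.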

Additional observations from a re-analysis of the deposited data

How the results depend on the processing

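No Gbp gene other than *Gbp2b*, and no gene of the interferon list, was called with RLE scaling, no filter, the replicate block, DESeq2, limma or any one ventricle left out. The count of all genes called was 1 and became 0 with the replicate block, 5 with DESeq2 and 2 with limma on log2(TPM + 1), and it ranged from 0 to 2 with a ventricle left out. Same-numbered ventricles had correlations of 0.35, 0.07 and −0.03, within the range of −0.37 to 0.35 for pairs of unlike number. With so few ventricles these values cannot decide whether replicate numbers pair them. The block changed no call of a Gbp gene other than *Gbp2b*. The fitted log2 fold change of *Gbp2b* was 2.95 on log2(TPM + 1) and 5.52 on log2(TPM + 0.1), where the added constant lifts the Cre negative values, and ran from 6.18 to 7.85 with a ventricle left out, the highest without Cre negative replicate 2, which held 3 of the 4 counts. Of 104 values of the other members, 13 changed sign and 91 did not, with a smallest adjusted p of 0.519. On TPM scales, which move the median of all tested genes to 0.11 for log2(TPM + 1) and 0.12 for log2(TPM + 0.1), *Gbp2* was at 0.06 for both (0.055 and 0.058) and *Gbp8* at 0.012 and 0.001, all under that shift. With a ventricle left out, values ran from −0.26 to 0.11 for *Gbp2*, −0.10 to 0.44 for *Gbp3*, −0.063 to 0.46 for *Gbp5*, −0.007 to 0.33 for *Gbp7*, −0.06 to 0.40 for *Gbp4*, −0.50 to 0.23 for *Gbp6*, −0.52 to 0.20 for *Gbp8* and 0.08 to 0.21 for *Gbp9*. The place of *Gbp2b* by level, 6 by TPM and by FPKM means, was 5, 7 and 8 in single Cre positive ventricles. By CPM 5 of the 8 other members, and by TPM 4, were highest in Cre negative replicate 2, and 5 and 3 were lowest in Cre negative replicate 3. With 3 ventricles a group, the printed intervals give the sizes of difference left possible. The values of spread without Cre negative replicate 1 were chosen after seeing the data.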
